A study of Mus musculus with 2 samples.

Results

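The Mir34 and Mir449 genes encode microRNAs (miRNAs) that share a seed, the short stretch by which a miRNA pairs with its target messenger RNAs. Mir34a, Mir34b, Mir34c and Mir449a were taken by gene symbol, 4 of the 1973 miRNA genes in the tables. The rule used names only, but the set was proposed with earlier results of these data known. All 4 were found, each with a single row. They were measured by small RNA sequencing of limbs from B6NCrl mouse embryos (Mus musculus) at embryonic day 15.5, labelled healthy, in fragments shorter than 30 nt taken from total RNA. The series held 1 group with 2 biological replicates, which were limbs of 78 embryos (replicate 1) and of 62 embryos (replicate 2), each a pool of males and females. No mutant, treatment, second stage or second tissue was part of the design, so levels were described and the 2 pools were set against each other.

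A miRNA is cut from a hairpin precursor, and either arm of the hairpin (5p or 3p) can be loaded into the complex that represses messenger RNAs. Mir34a and the cotranscribed Mir34b and Mir34c are known as direct transcriptional targets of p53, and their miRNAs repress genes of the cell cycle and of cell survival. In bone, miR-34b and miR-34c are known to restrain osteoblasts, and miR-34c also acts on Notch signalling there. The Mir449 genes lie within Cdc20b, a gene active in multiciliated cells, and the miR-34 and miR-449 families together are required for the assembly of motile cilia.

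The shared seed is the reason these genes are treated together, so the 5p miRNAs are shown first, 5′ to 3′, with the seed (bases 2 to 8) in capitals. The sequences are from RefSeq on GRCm38.p6, the assembly also called mm10.
miR-34a-5p: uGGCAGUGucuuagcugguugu
miR-34b-5p: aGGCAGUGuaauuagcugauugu
miR-449a-5p: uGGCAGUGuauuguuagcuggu
miR-449c-5p: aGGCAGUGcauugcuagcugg
These 4 were the only mature miRNAs with that seed among the 1738 in the table. The mature miR-34c-5p and the miRNAs of Mir449b had no entry. Outside the seed the miRNAs diverged. Counted from the 5′ end without gaps, miR-34a-5p and miR-449a-5p were identical at 15 of 22 bases, and miR-34b-5p and miR-34a-5p at 11 of 22. Among the 5p pairs compared, miR-449a-5p and miR-449c-5p were closest, with 18 of 21 bases identical. Not every pair was compared, and miR-34c-5p could not be.

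The 3p arms are shown for Mir34b and Mir34c because these had a seed in common with each other and with no other mature miRNA in the table.
miR-34b-3p: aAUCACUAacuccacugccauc
miR-34c-3p: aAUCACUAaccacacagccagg
They were identical at 17 of 22 bases. The 3p seeds of miR-34a (AUCAGCA) and miR-449a (AGCUAAC) were each found once.

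The tables gave counts per hairpin gene, so the arms could not be told apart. The hairpins of the genes with both arms in the table show what a count covers, with both mature arms in capitals.
Mir34a, chr4:150068454-150068555, plus strand: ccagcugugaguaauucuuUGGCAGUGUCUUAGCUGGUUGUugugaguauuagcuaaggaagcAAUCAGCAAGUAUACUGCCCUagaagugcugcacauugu
Mir34b, chr9:51103562-51103645, minus strand: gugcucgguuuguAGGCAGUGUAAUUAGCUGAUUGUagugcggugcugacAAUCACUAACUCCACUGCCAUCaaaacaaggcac
Mir449a, chr13:113037534-113037624, plus strand: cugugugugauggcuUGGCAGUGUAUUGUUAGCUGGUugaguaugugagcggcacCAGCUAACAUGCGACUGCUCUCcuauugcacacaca
Mir34c is on chromosome 9 (51103034 to 51103110, minus strand), with 451 bases between it and Mir34b. On mm10 with GENCODE M21, Mir34b and Mir34c overlapped no other gene on their own strand, and lay within Btg4 on the opposite strand. Mir449a (ENSMUSG00000065575.1) lay in an intron of Cdc20b on the same strand. The last 17 bases of Mir34a (ENSMUSG00000065493.1) overlapped an exon of Gm37795, a predicted transcript.

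All 4 genes were found in both pools of limbs. Replicate 1 held 4263630 and replicate 2 held 5151214 sense counts over miRNA genes. Levels are sense counts scaled to a library total of 1000000 (CPM). Genes that reached 10 sense counts in each replicate, 340 in all, are called detected. All 4 of the genes passed this minimum. Their summed share of the sense total was 0.0739% (Wilson 95% interval 0.0713 to 0.0765) in replicate 1. In replicate 2 it was 0.0847% (0.0822 to 0.0872). The mean share was 0.0793% ± 0.00767 (SD, n = 2). A whole limb holds many cell types, and fewer expressing cells cannot be told apart from less of a miRNA per cell. Intervals cover counting error only.

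Mir34a, the p53 target on chromosome 4, was the most counted of the 4. It had 1563 sense counts in replicate 1 and 2051 in replicate 2, which were 367 CPM (Wilson 95% interval 349 to 385) and 398 CPM (381 to 416). Its mean was 382 ± 22.3 CPM (SD, n = 2). The intervals of the 2 pools overlapped. Mir34a ranked 130 of 1973 genes in replicate 1 and 128 in replicate 2, and 37.9% of the detected genes lay above its mean level.

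Mir34c (ENSMUSG00000065587.1), of the chromosome 9 cluster and linked like Mir34b to p53 and osteoblasts, followed. It had 1273 and 1956 sense counts, or 299 CPM (283 to 315) in replicate 1 and 380 CPM (363 to 397) in replicate 2. Its mean was 339 ± 57.4 CPM (SD, n = 2), the widest relative spread of the 4, at 16.9% of the mean. Replicate 2 was the higher pool, and its interval did not overlap that of replicate 1.

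Mir449a, the gene linked to multiciliated cells, had 254 and 284 sense counts. Its level was 59.6 CPM (52.7 to 67.4) in replicate 1 and 55.1 CPM (49.1 to 61.9) in replicate 2, with a mean of 57.4 ± 3.14 CPM (SD, n = 2). Replicate 1 was slightly higher, and the intervals overlapped.

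Mir34b (ENSMUSG00000065492.1), the cluster partner of Mir34c, was the least counted of the 4. It had 59 and 72 sense counts, or 13.8 CPM (10.7 to 17.8) and 14.0 CPM (11.1 to 17.6). The mean of 13.9 ± 0.0985 CPM (SD, n = 2) had a spread far smaller than the counting interval of either pool.

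**Figure D1:**
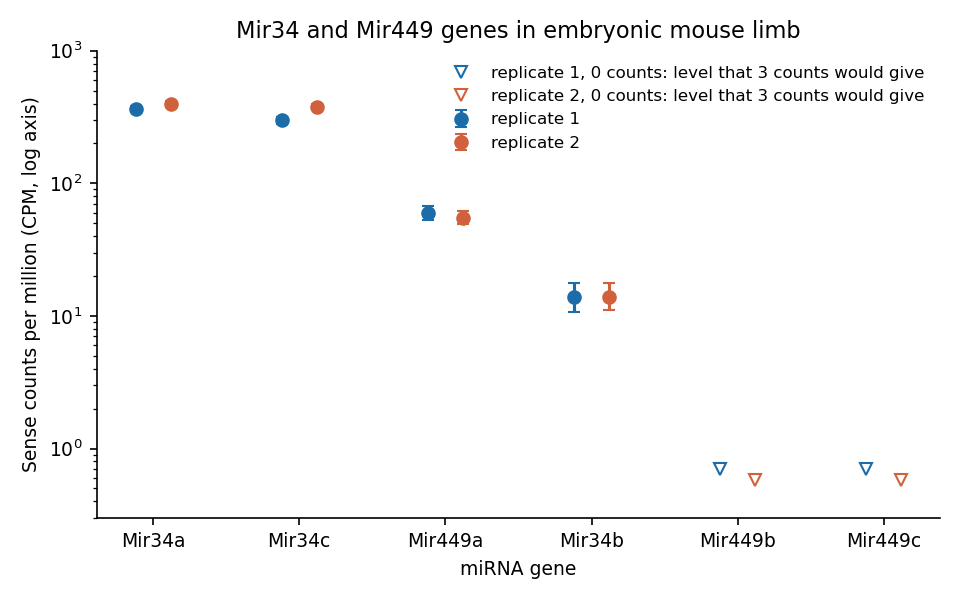
Sense CPM on a log axis for each gene, with a point for each replicate and bars for the Wilson 95% interval (smaller than the points for Mir34a and Mir34c). Mir34a and Mir34c lie between 299 and 398 CPM, Mir449a at 55.1 and 59.6 CPM and Mir34b at 13.8 and 14.0 CPM, while open triangles mark the level that 3 counts would give for Mir449b and Mir449c, which had 0 counts.

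The order Mir34a, Mir34c, Mir449a, Mir34b was the same in both pools. Levels of different miRNAs were compared as counts, on the untested assumption that each read stands for about 1 mature miRNA. The values per base of hairpin are added. Between Mir34a and Mir34c the fold was 1.23 (exact 95% interval 1.14 to 1.32) in replicate 1 and 1.05 (0.985 to 1.12) in replicate 2. Their intervals of CPM overlapped in replicate 2 alone, so these neighbours were not told apart there. Divided by hairpin length (102 and 77 bases), Mir34a was at 0.851 times the level of Mir34c, and the order of these 2 turned. The steps below were larger than their intervals in both pools. Mir34c was 5.01-fold above Mir449a in replicate 1 (4.38 to 5.76) and 6.89-fold in replicate 2 (6.08 to 7.83), with mean levels 5.91-fold apart, or 6.99-fold per base. Mir449a was 4.31-fold above Mir34b in replicate 1 (3.23 to 5.82) and 3.94-fold in replicate 2 (3.04 to 5.18), with means 4.12-fold apart, or 3.81-fold per base. Whether the different sequences were captured equally was not tested.

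As shares of the 4 genes' own counts, Mir34a held 48.3% ± 1.86 and Mir34c 42.6% ± 3.12 (SD, n = 2). Mir449a held 7.29% ± 1.10 and Mir34b 1.76% ± 0.158. Mir34c went from a share of 40.4% (38.7 to 42.2, Wilson) in replicate 1 to 44.8% (43.4 to 46.3) in replicate 2, and those intervals did not overlap. The share of Mir34a was 49.6% (47.9 to 51.4) and 47.0% (45.5 to 48.5), with overlapping intervals.

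Neighbours in the genome were counted very unequally. Mir34c stood 21.6-fold above Mir34b in replicate 1 (exact 95% interval 16.6 to 28.5) and 27.2-fold in replicate 2 (21.5 to 34.9). The mean levels were 24.4-fold apart, or 26.6-fold per base of hairpin. Among 40 clusters of miRNA genes with at least 2 detected genes, built with starts at most 10 kb apart on the same strand, this fold between highest and lowest gene ranked at position 19. Among the 27 clusters with exactly 2 detected genes it ranked at position 12, where the folds ran from 1.31 to 351 with a median of 11.5. In 8 of the 11 clusters ranked above it the lower gene had 20 consecutive bases found in another miRNA gene. Lower genes of clusters ranked below it had such a stretch too, among them Mir27b, Mir181a-2, Mir16-1 and Mir194-2. Any reads common to copies would be missing from such counts, and their part in these folds was not tested. Among the 11 clusters in which neither gene had such a stretch, an alternative chosen after seeing the data, Mir34c over Mir34b ranked at position 4. The folds there ran from 1.38 to 56.6 with a median of 11.4, and the clusters above were Mir143 with Mir145a, Mir30d with Mir30b and Mir130b with Mir301b.

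**Figure D2:**
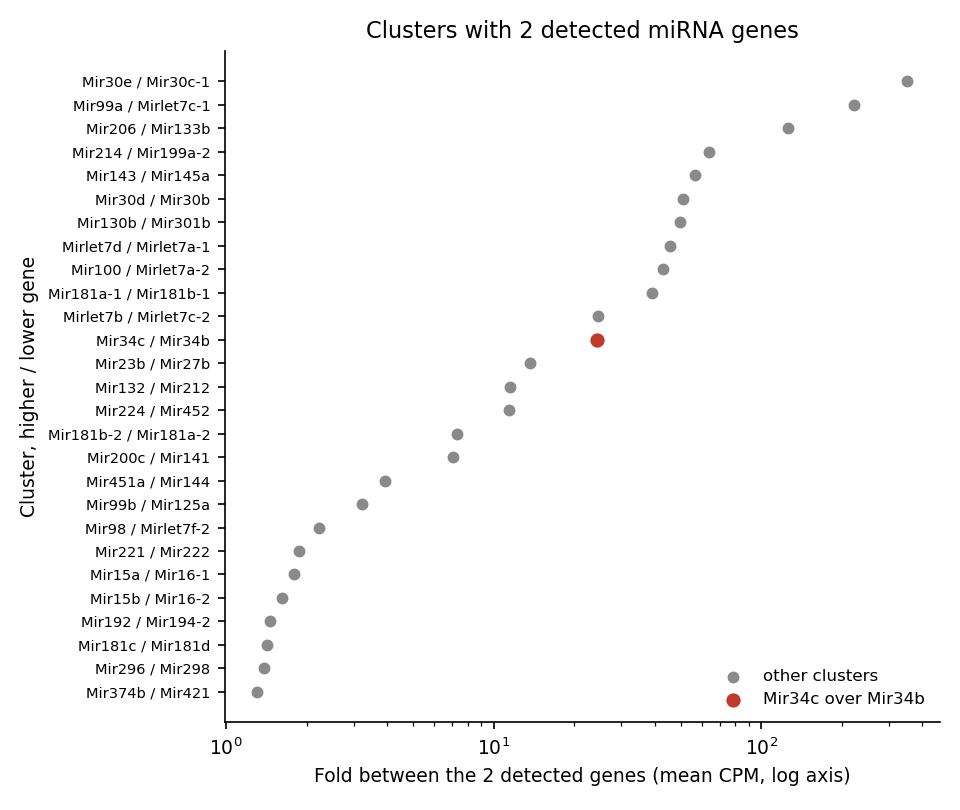
Fold between the higher and the lower gene, by mean CPM on a log axis, for the 27 clusters with exactly 2 detected miRNA genes. Mir34c over Mir34b, at 24.4, is at position 12 from the top. In 8 of the 11 clusters above it, and in some below it, the lower gene shares sequence with another miRNA gene.

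Reads with several alignments were totalled apart and entered no gene, so shared sequence can bear on these levels. Shared sequence was searched among annotated miRNA genes only, so matches elsewhere in the genome were not covered. None of the 4 hairpins had 20 consecutive bases found in another annotated miRNA gene. The longest such stretch was 14 bases for Mir449a, 12 for Mir34a, and 11 for Mir34b and Mir34c. Against the other 2201 annotated hairpins, both strands searched, miR-34a-5p had at least 6 mismatches and miR-449a-5p at least 4, the latter to Mir449c. The closest match was between cluster partners, since miR-34b-5p differed from a stretch of the Mir34c hairpin at 2 bases. The sources used here do not give the number of mismatches allowed in alignment, and an exchange of reads between Mir34b and Mir34c was not tested.

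The other genes of the Mir449 cluster had no counts. Mir449b (ENSMUSG00000078027.1, chromosome 13, 113037419 to 113037498) lay 35 bases before Mir449a, and Mir449c (ENSMUSG00000076146.1, 113035983 to 113036091) 1551 bases before it from start to start. Both had 0 sense counts and 0 antisense counts in each replicate, which allows up to 0.704 CPM in replicate 1 and 0.582 CPM in replicate 2. Set against that limit of 3 counts per library, the Mir449a count was 84.7-fold higher in replicate 1 and 94.7-fold higher in replicate 2. The counting error of Mir449a itself is not included in these folds. All 3 Mir449 genes lay within introns of Cdc20b, so within this host 1 of 3 hairpins was detected. Neither Mir449b nor Mir449c had 20 consecutive bases found in another miRNA gene, and the rest of the genome was not searched.

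Antisense reads were nearly absent at the 4 genes. A single antisense count was found, at Mir34b in replicate 1, which was 1.67% of its 60 counts on both strands (Wilson 95% interval 0.295 to 8.86). Mir34a, Mir34c and Mir449a had 0 antisense counts in both replicates, which allows up to 0.192%, 0.236% and 1.18% of their counts in replicate 1. The limits in replicate 2 were 0.146%, 0.153% and 1.06%, and 4.17% for Mir34b.

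Between the pools, Mir34c rose in replicate 2, Mir34a rose slightly, and Mir449a and Mir34b did not pass the test. The log2 ratio of replicate 2 over replicate 1 was 0.35 for Mir34c (exact 95% interval 0.24 to 0.45, adjusted p = 7.33e-11), a 1.27-fold difference. For Mir34a it was 0.12 (0.02 to 0.22, adjusted p = 0.0286, exact binomial test). Mir449a had -0.11 (-0.36 to 0.14, adjusted p = 0.513, exact binomial test) and Mir34b 0.01 (-0.50 to 0.54, adjusted p = 1, exact binomial test). The intervals of the last 2 are wide, and for Mir34b they hold differences larger than that of Mir34c. Values are from an exact two-sided binomial test of each detected gene given the library totals, with Benjamini-Hochberg adjustment over all 340 and a threshold of 0.05.

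So 2 of the 4 genes passed, both higher in replicate 2, beside 50.9% of all detected genes that passed in either direction 25.3% that passed as higher and 25.6% as lower. A share of 2 in 4 is near that background. Their median log2 ratio was 0.07, beside 0.02 over all detected genes. In absolute size the log2 ratio of Mir34c was at or above that of 72.1% of detected genes, and that of Mir34a at or above 31.8%. The call of Mir34a was lost with DESeq2 size factors (log2 ratio 0.10, adjusted p = 0.0809, exact binomial test) and with genes tested from 1 count upward (adjusted p = 0.0563, exact binomial test). The test compares 2 libraries with counting noise, not conditions.

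**Figure D3:**
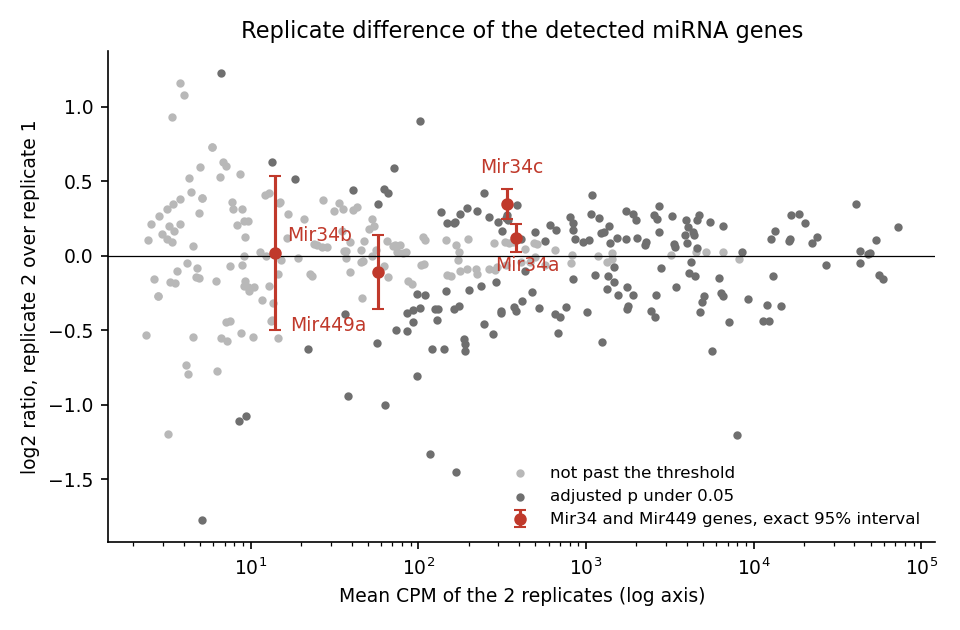
log2 ratio of replicate 2 over replicate 1 against mean CPM (log axis) for the 340 detected miRNA genes, dark where the adjusted p was under 0.05, with the 4 genes in red and exact 95% intervals. Mir34c at 0.35 and Mir34a at 0.12 lie above 0 with their intervals, and those of Mir449a and Mir34b cross 0.

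The pools also differed in some of the miRNAs listed as markers of tissues. Of 8 listed genes of skeletal muscle 7 were analysed and 4 detected, with Mir133a-1 at 0. The summed level was 11549 CPM in replicate 1 and 4986 CPM in replicate 2. Most of this sum was Mir206, at 11050 and 4787 CPM, and all 4 detected genes passed the test as lower in replicate 2. Mir133a-1 and 3 others of the 7 have sequence in common with other copies, whose common reads were not counted. The epidermal Mir203 and Mir205 summed to 83441 and 94033 CPM, and the 5 genes of the epithelial miR-200 family, all detected, to 12808 and 14360 CPM. The cartilage genes Mir140 and Mir455 summed to 47612 and 45564 CPM. Smaller sums were found for the 2 erythroid genes (424 and 411 CPM) and for 3 of 4 listed leukocyte genes (614 and 674 CPM). The other leukocyte gene, Mir142, was not found under that symbol. Neither erythroid gene passed the test between the pools, and of the leukocyte genes Mir155 alone did. Endothelial Mir126a had 21698 and 22975 CPM and the hepatocyte miRNA Mir122 had 57.5 and 86.2 CPM. Mir126a, like the erythroid Mir451a, has 20 consecutive bases found in another miRNA gene. Of 6 listed neuronal genes 5 were analysed. None of these was detected and 4 were at 0, but all 5 have 20 consecutive bases found in another miRNA gene. Reads common to such copies were not counted, so these values do not give the level of neuronal miRNAs. Of the 3 genes listed for multiciliated cells, Mir449a was the only one with counts. These 3 are the Mir449 cluster itself, so they give no independent marker beside Mir449a. Mir34c moved in the direction of the epidermal and miR-200 sums, and also of Mir126a, Mir122 and the leukocyte sum. It moved against the muscle, cartilage and erythroid sums. The part of tissue makeup in its difference was not tested.

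Beside other miRNAs linked to p53, Mir34a and Mir34c were of middle level. Of 10 listed genes 9 were analysed and 8 detected, with mean levels from 6.65 to 9222 CPM, and 4 of the 8 lay above Mir34a. The list was led by Mir143, known from smooth muscle and fibroblasts, with 10149 CPM in replicate 1 and 8295 CPM in replicate 2. Mir15a and Mir16-1, which repress cyclins and Bcl2, followed with 2433 and 3058 CPM and with 1471 and 1598 CPM. Mir143 fell in replicate 2, with a log2 ratio of -0.29, while Mir15a (0.33) and Mir16-1 (0.12) rose. In all 5 of the 8 passed the test as higher and 2 as lower in replicate 2, beside 25.3% and 25.6% of all detected genes. Genes with more counts pass at smaller differences, which these shares do not take into account. The median log2 ratio was 0.11, beside 0.02 over all detected genes. The summed level of the list went the other way, from 15335 CPM in replicate 1 to 14292 CPM in replicate 2. Mir192, Mir194-2 and Mir215, which are also known from liver and gut, were at 57.2 ± 9.64, 39.2 ± 1.69 and 6.65 ± 3.77 CPM (SD, n = 2), below Mir34a and Mir34c.

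Among miRNAs linked to osteoblasts, the leading genes were far above the Mir34 genes. Of 22 listed genes 21 were analysed and 16 detected, from 4.01 to 56127 CPM, and 6 of the 16 lay above Mir34a. Mir206 and Mir133a-1 were also on the skeletal muscle list. Of these, Mir206 lay above Mir34a and passed the test as lower in replicate 2. Mir335, which represses the Wnt antagonist Dkk1, led with 58612 and 53642 CPM. Mir23a, of a cluster that acts on Runx2, had 27551 and 26390 CPM, and Mir214, which represses Atf4 in osteoblasts, had 18755 and 21793 CPM. Mir335 and Mir23a fell in replicate 2 (log2 ratio -0.13 and -0.06), and Mir214 rose (0.22). Of the 16 genes 3 passed as higher and 5 as lower, a total near the background of 50.9%, and the median log2 ratio was -0.06. Mir204, which represses Runx2, the master regulator of osteoblasts, was the gene of this list nearest to Mir34c, at 304 and 363 CPM. Of the 21 osteoblast-linked genes 13, and of the 9 p53-linked genes 4, had 20 consecutive bases found in another miRNA gene. Their levels leave out any reads common to copies.

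**Figure D4:**
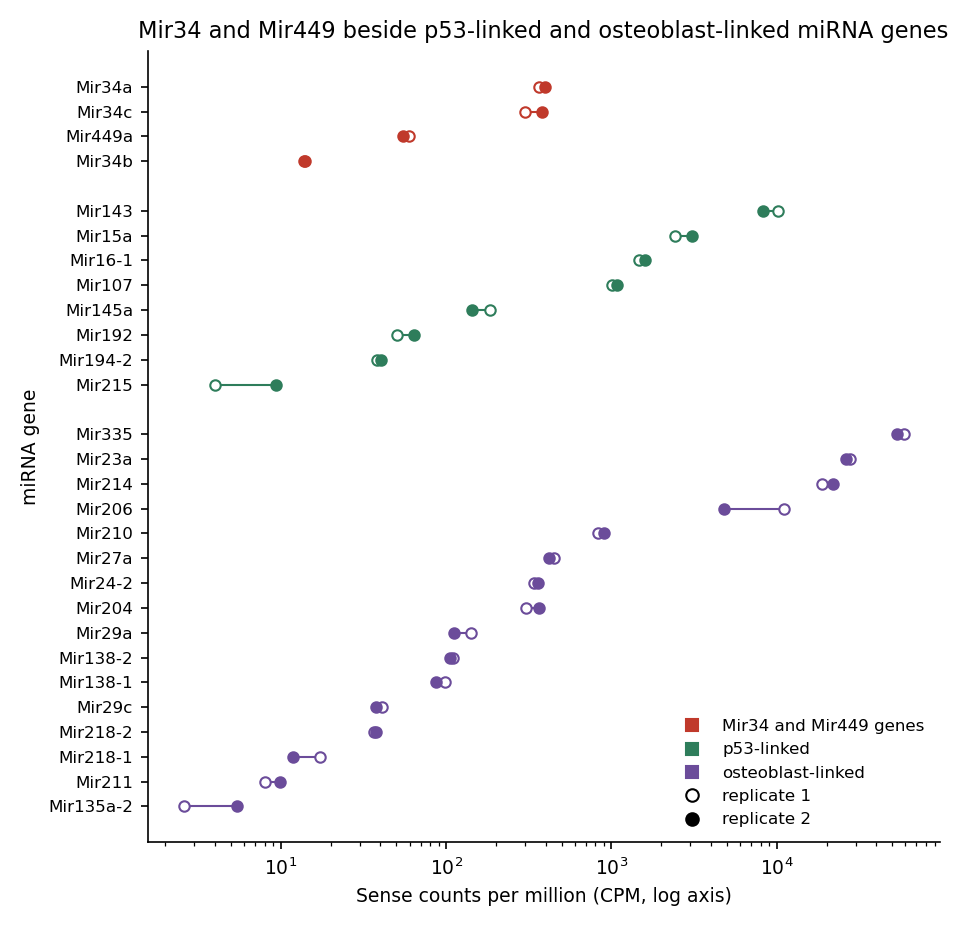
Sense CPM on a log axis for the 4 genes (red) and the detected genes of the p53-linked (green) and osteoblast-linked (purple) lists, with open points for replicate 1 and filled points for replicate 2. Mir34a and Mir34c sit in the middle of both lists, and Mir206, a muscle miRNA, stands out by the gap between its 11050 and 4787 CPM.

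In level alone, over the 2 libraries, Mir34c was closest to Mir669o, Mir204 and Mir339, with Euclidean distances of 0.05, 0.07 and 0.09 in log2(CPM + 1). Their log2 ratios were 0.27, 0.26 and 0.24, beside 0.35 for Mir34c. Mir34a was closest to Mir374b (0.07), Mir200a (0.14) and Mir31 (0.16). Mir449a was closest to Mir103-2 (0.11), Mir193b (0.16) and Mir301b (0.17), and Mir34b to Mir212 (0.13), Mir669e (0.16) and Mir582 (0.20). With 2 libraries this measures closeness in level, and the genes were chosen by it.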

How the data were processed

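Small RNA of 2 limb pools was analysed. The deposited tables held raw read counts, 1 row for each miRNA gene, made on mm10 with annotation M4, per the deposited README. Each had 1973 genes, 3 count columns without a header and 4 summary lines. For every gene the first column equalled the sum of the others, so the columns were taken as both strands, sense and antisense. The sources used here name no aligner, counter or trimming step. Sense counts were scaled to CPM by the sense total. Symbols and positions came from GENCODE M21 by gene identifier, without version, which matched 1894 genes, and miRNA sequences from RefSeq (GRCm38.p6), which had an entry for 5 of the 6 Mir34 and Mir449 genes. With 1 group no quasi-likelihood test was possible, and the exact binomial test (scipy 1.17.1, Python 3.11.15) was checked on simulated data. The simulated counts varied by counting noise and set folds alone, so further variation between pools was not covered. Alternatives used edgeR 4.0.16 (TMM) and DESeq2 1.42.0 size factors in R 4.3.3.

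A count of 0 was given a limit of 3 counts, and intervals have a confidence level of 95%. Named genes were the 4 members, other genes with their 5p seed, miRNA genes within 10 kb on the same strand, the 3 nearest in level for each, and the 3 highest of each list. Other list genes named were chosen after their values were seen. Members and lists were chosen with earlier results of these data known. Reads with several alignments made up 29.4% and 29.7% of the reads and entered no gene.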

Additional observations from a re-analysis of the deposited data

How the results depend on the processing

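With reads of several alignments in the denominator, mean levels were 235 CPM for Mir34a, 208 for Mir34c, 35.2 for Mir449a and 8.54 for Mir34b, and the summed share was 0.0487%. Counted irrespective of strand, Mir34b had 13.6 CPM. The log2 ratio of Mir34b turned to -0.00607 with DESeq2 size factors and to -0.00240 irrespective of strand, both far inside its interval. Mir34a lost its call with DESeq2 size factors (log2 ratio 0.10) and with genes tested from 1 count upward (0.12). Mir34c remained past the threshold in every alternative run. Per base of hairpin, Mir34a over Mir34c became 0.851, Mir449a over Mir34b 3.81 and Mir34a over Mir34b 22.6. The count of genes that differed between replicates stayed within 1.5 times of 173. With 2 replicates, leaving out either leaves the value of the other, so this gave no check of stability. No paired analysis was possible because the series held a single group. Depth limits Mir34b most, with 59 and 72 counts.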
